A study of Mus musculus with 14 samples.

Results

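The genes described here belong to the integrated stress response and the unfolded protein response, 2 connected programmes with which a cell meets amino acid shortage and misfolded protein. They were taken as a fixed list of 37 genes, of 55416 gene identifiers in the deposited count table and 18430 that passed the filter on low counts. All 37 passed it. The list has 2 branches. The ATF4 branch holds 24 genes, made up of 6 transcription factors, 5 feedback regulators, 8 enzymes of amino acid and one-carbon metabolism and 5 surface proteins. The endoplasmic reticulum branch holds 13, made up of 4 stress sensors and their transcription factor, 7 chaperones and folding enzymes and 2 genes of protein degradation. The list's rule names genes and sets no threshold on a measured value, but the genes were chosen with earlier results of these data known.

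The series compared the solvent DMSO with STM2457, which inhibits METTL3, the methyltransferase behind N6-methyladenosine in mRNA, at 50 µM for 12 h. XEN are extraembryonic endoderm stem cells (3 libraries per arm), TSC are trophectoderm-derived stem cells (2 per arm) and EpiSC are epiblast stem cells (2 per arm). Every library came from a hybrid background (Mus molossinus X Mus musculus), XEN and TSC with the genotype WT and EpiSC with the genotype XmolXmus-ΔTsix, which DMSO and STM2457 cells share. Each line was 1 culture line in a medium of its own: XEN in DMEM with serum, TSC in RPMI conditioned by embryonic fibroblasts with serum and Fgf4, EpiSC in serum replacement with Fgf2 and activin A. Non-essential amino acids and L-glutamine were added to every medium. Line and medium cannot be told apart in these data, nor can genotype where EpiSC is compared with XEN or TSC. The labels do not say whether replicates were separate cultures, so the spread behind each p-value is that among these libraries and may be technical.

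In the integrated stress response, kinases that sense amino acid shortage, haem shortage, double-stranded RNA or unfolded protein phosphorylate the translation factor eIF2. General protein synthesis then slows, while the mRNA of the transcription factor ATF4 is translated better because of short reading frames in its leader. ATF4 binds with C/EBP partners to composite elements and raises genes of amino acid synthesis, amino acid import and feedback. In the unfolded protein response, the sensors IRE1 (Ern1), ATF6 (Atf6) and PERK (Eif2ak3) watch the lumen of the endoplasmic reticulum. IRE1 splices Xbp1 mRNA and ATF6 is cleaved to an active factor, and both raise chaperone genes. PERK phosphorylates eIF2 and so feeds the ATF4 branch. Since ATF4 is set mainly by translation, and XBP1 by splicing, the gene-level counts of Atf4 and Xbp1 do not measure the activity of their proteins. Secretory cells such as those of the extraembryonic endoderm are known for high levels of endoplasmic reticulum chaperones.

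The response elements of both branches can be read in the promoters. The RefSeq promoter table (GRCm38.p6) held 34 of the 37 genes, all but Eif4ebp1, Slc7a5 and Atf6, and the 250 bases before each start were searched on both strands. The C/EBP-ATF response element was searched as TGATGNAA. It matched in 7 of 22 promoters of the ATF4 branch (31.8%), in 1 of 12 of the endoplasmic reticulum branch (8.33%) and in 3.91% of 27025 genes. The endoplasmic reticulum stress element, searched as CCAAT followed by 9 bases of any kind and CCACG, matched in 0 of 22, in 4 of 12 (33.3%) and in 0.13% of all genes. The unfolded protein response element, searched as TGACGTGG, matched in none of the 34 genes and in 0.603% of all. No pair of these motifs overlapped in the windows printed here. A match is a description of the sequence, not a site shown to be bound. The first 4 windows below are from ATF4-branch genes that bear on the STM2457 comparison, and the last 4 are all the promoters of the list with a stress element. Capitals mark the match, which is on the opposite strand, and so reads as the reverse complement, in Chac1, Nupr1, Pck2 and Calr. Each is printed 5′ to 3′ on the gene's strand.
Chac1, chr2:119351024-119351081, + strand: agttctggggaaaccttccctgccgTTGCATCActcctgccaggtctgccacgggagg
Nupr1, chr7:126625548-126625605, - strand: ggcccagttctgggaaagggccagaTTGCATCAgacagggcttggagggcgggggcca
Pck2, chr14:55540138-55540195, + strand: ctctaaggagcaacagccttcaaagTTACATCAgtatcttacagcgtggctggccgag
Asns, chr6:7693210-7693257, - strand: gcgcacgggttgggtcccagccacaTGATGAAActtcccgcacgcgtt
Hspa5, chr2:34772000-34772068, + strand: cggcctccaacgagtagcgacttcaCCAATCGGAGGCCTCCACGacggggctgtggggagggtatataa
Hsp90b1, chr10:86705613-86705681, - strand: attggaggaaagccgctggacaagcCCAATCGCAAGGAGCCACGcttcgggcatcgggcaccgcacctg
Pdia6, chr12:17266466-17266534, + strand: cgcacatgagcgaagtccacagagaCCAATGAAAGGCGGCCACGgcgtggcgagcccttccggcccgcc
Calr, chr8:84847050-84847118, - strand: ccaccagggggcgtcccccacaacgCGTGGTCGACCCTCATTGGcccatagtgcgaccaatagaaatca
The match began 193 bases before the start in Chac1, 23 in Asns and 65 in Hspa5. Hsp90b1 held a further match 107 bases before its start. The other matches to the C/EBP-ATF element were in Atf3, Slc7a11, Vldlr and Herpud1.

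XEN libraries held 6826496 to 10024628 counts, TSC libraries 17909934 to 20354242 and EpiSC libraries 18640099 to 21097380, so a gene of low level is measured least precisely in XEN. The mitochondrial ribosomal RNAs took 12.0 to 16.0% of counts in XEN and 0.0366 to 0.0505% in the others. Summed markers matched the labels, though the epiblast marker Utf1 was higher in TSC than in EpiSC. The summed level of 9 endoderm markers was 34170 to 43810 CPM (counts scaled to a common library total) in XEN and at most 194.6 elsewhere, 7 trophoblast stem cell markers summed to 1812 to 1912 in TSC and at most 213.3 elsewhere, and 6 epiblast markers to 1083 to 1304 in EpiSC. Of the epiblast markers, 2 were also at 1 CPM or more in TSC, where the sum was 486.1 to 543.1. Nearly all of that sum was Utf1, at 541.1 and 507.2 CPM in DMSO and 503.4 and 483.4 with STM2457. In EpiSC Utf1 stood at 288.7 and 281.4 CPM in DMSO and 277 and 250.4 with STM2457. The 8 fibroblast markers summed to 76.36 to 82.01 CPM in EpiSC, 4.313 to 7.099 in TSC and at most 0.9715 in XEN, where at least 4 of them were at 0. All CPM here are relative to the TMM-scaled library total, and a fold change is STM2457 over DMSO unless lines are named. Same-numbered XEN libraries deviated together over all genes (correlations of 0.22, 0.38 and 0.34 against -0.29 to -0.02 for other numbers), so the XEN numbers were taken as pairs. In TSC and EpiSC the same correlation was -0.00 to -0.01 and the numbers were not taken as pairs. Each comparison with STM2457 is therefore given from the edgeR fit fixed in the design, without pairs, and from a fit with the XEN pairs as a block, chosen after seeing the data. A log2 change is followed by its SE after ±. A gene was called at an adjusted p under 0.05 over all 18430 genes. Because all lines share 1 estimate of each gene's spread, the XEN pairs also change the calls in TSC and EpiSC.

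In DMSO, XEN cells carried the endoplasmic reticulum branch at a higher level than both other lines. Of its 13 genes, 12 were lower in TSC than in XEN and 12 were lower in EpiSC than in XEN, where 36% and 35.1% of all genes tested were called lower. The exceptions were Ern1, higher in TSC than in XEN (0.76 ± 0.11 log2, SE), and Hsp90b1, whose EpiSC level was not called different (-0.04 ± 0.15 log2, edgeR adjusted p = 0.844). Over all 37 genes, 30 were called in TSC against XEN (72.5% of all genes), 20 in EpiSC against XEN (71.7%) and 18 in EpiSC against TSC (54.4%). In these bulk samples, fewer cells of a type and less RNA per cell cannot be told apart. Mitochondrial ribosomal RNA and the fibroblast markers also differed between the lines, as given above, and their part in these differences was not tested.

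Among the sensors and factors of that branch, Xbp1, which encodes the factor made by IRE1 splicing, stood at 319.9, 229 and 300.4 CPM in the 3 XEN DMSO libraries, 61.1 and 61.5 in TSC and 48.7 and 48.5 in EpiSC. XEN lay above both other lines in every library, by 4.62-fold over TSC and 5.83-fold over EpiSC (-2.21 ± 0.14 and -2.54 ± 0.14 log2, edgeR adjusted p = 4.81e-10 and 1.05e-10). Atf6 stood at 162, 138 and 154 CPM in XEN, 49.3 and 47.9 in TSC and 46.4 and 45.3 in EpiSC. Eif2ak3 stood at 98.1, 79.8 and 90.5 CPM in XEN, 29.4 and 30.04 in TSC and 32.7 and 33.5 in EpiSC. Both sensors were 3.11- and 3.01-fold lower in TSC than in XEN, and the 2 other lines did not differ in them by the test (edgeR adjusted p = 0.619 and 0.307). Ern1, the gene of IRE1, had another order, with 31.2, 28.2 and 31.8 CPM in XEN, 52.9 and 50.3 in TSC and 14.3 and 14 in EpiSC. TSC was highest and EpiSC lowest without overlap, and each pair of lines was called.

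Calr and Hspa5, which encode calreticulin and the luminal HSP70 chaperone BiP, had the highest levels of the list per kb of exon in XEN. Their DMSO means there were 801 and 358 CPM per kb, followed by 273 for Hsp90b1, the luminal HSP90. Calr went from 2522, 1951 and 2444 CPM in XEN to 1020 and 943 in EpiSC and 428 and 449.8 in TSC, and every pair of lines was called. Hspa5 kept the same order, at 1596, 1188 and 1764 CPM in XEN, 1097 and 1112 in EpiSC and 449 and 479 in TSC, with TSC 3.27-fold below XEN and EpiSC 1.37-fold below it. Hsp90b1 varied least among the chaperones, with 969.5, 1138 and 1192 CPM in XEN, 782 and 860 in TSC and 1042 and 1104 in EpiSC. Dnajb9, a co-chaperone of BiP, was at 51.4, 44.5 and 59 CPM in XEN and at 11 and 13.5 in EpiSC, a 4.22-fold difference. Herpud1, a membrane protein of the degradation machinery, differed most of the branch between TSC and XEN, with 139, 76.6 and 93.1 CPM in XEN, 7.56 and 5.07 in TSC and 20.6 and 19.9 in EpiSC. That was 16.2-fold lower in TSC and 5.08-fold lower in EpiSC than in XEN (edgeR adjusted p = 2.58e-07 and 1.2e-05). The remaining genes of the branch, Sdf2l1, Pdia4, Pdia6 and Edem1, were called lower than XEN in both lines, with Edem1 at -0.95 log2 in TSC and -1.68 in EpiSC and Sdf2l1 at -1.27 and -1.92.

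The ATF4 branch had no common order of lines. In TSC against XEN, 6 of its 24 genes were higher and 11 lower, in EpiSC against XEN 5 and 3, and in EpiSC against TSC 7 and 4. Background shares were 36.5% higher and 36% lower, 36.6% and 35.1%, and 27.4% and 27%, in the same order. Slc7a11 is among the genes higher in EpiSC, here, without both XEN libraries 1 and with the ribosomal protein scaling below. It had 0, 0 and 2 counts in the XEN DMSO libraries, 2 and 2 in TSC and 32 and 41 in EpiSC. It passed the filter on low counts through EpiSC alone, so its direction was given in advance. The counts of called genes rest in part on XEN library 1, described below. Without both XEN libraries 1, EpiSC against XEN gave 14 genes of the branch higher and 3 lower (70.8% of all genes called), TSC against XEN 9 and 11 (71.4%), and EpiSC against TSC 14 and 6 (57%). Cebpb, a C/EBP partner factor, stood at 2.04, 0.81 and 0.976 CPM in XEN, 21.1 and 20.9 in TSC and 8.99 and 9.29 in EpiSC, and all libraries of the other lines lay above XEN (4.05 ± 0.30 log2 in TSC and 2.86 ± 0.33 in EpiSC). On the opposite strand Tmem189 covers 20.7% of the exons of Cebpb, and the strand setting of the counts is unknown here. Atf5, a factor close to ATF4, was an EpiSC gene by level, at 71.4 and 68.2 CPM against 13.5, 8.1 and 9.52 in XEN and 4.17 and 4.17 in TSC. The EpiSC level was 6.75-fold above XEN and 16.7-fold above TSC (edgeR adjusted p = 2.53e-10 and 2.25e-11). Atf3, an early stress-induced factor, stood at 29, 10.7 and 5.73 CPM in XEN, 2.23 and 2.66 in TSC and 15.7 and 15.4 in EpiSC. TSC lay below both others (-2.60 ± 0.71 log2 against XEN, and EpiSC 6.33-fold above TSC).

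Atf4 itself stood at 459, 203 and 254 CPM in XEN, 129 and 134 in TSC and 283 and 278 in EpiSC. TSC was below XEN (-1.21 ± 0.42 log2, edgeR adjusted p = 0.0263), EpiSC lay inside the XEN range, and EpiSC against TSC was not called (adjusted p = 0.0659). Ddit3, the pro-apoptotic factor CHOP, was lowest in TSC too, at 5.33 and 5.62 CPM against 13.3, 14.4 and 12.6 in XEN and 11.1 and 11.3 in EpiSC. Asns, asparagine synthetase, ran the other way, with 330.3 and 343 CPM in TSC, 200.5, 83.2 and 68.3 in XEN and 141 and 146 in EpiSC. TSC was 2.88-fold above XEN (edgeR adjusted p = 0.0166), a call lost with the ribosomal protein scaling described next (0.48 log2, adjusted p = 0.312). Phgdh, the first enzyme of serine synthesis, was highest in EpiSC (227 and 229 CPM against 111, 56.7 and 76.1 in XEN and 83 and 93 in TSC), 2.81- and 2.59-fold above XEN and TSC. Of the surface proteins, the lipoprotein receptor Vldlr went from 90.1, 168 and 111 CPM in XEN to 45.3 and 41.5 in TSC and 11.8 and 13.3 in EpiSC, all 3 lines apart. The cationic amino acid transporter Slc7a1 was at 125, 132 and 114 CPM in XEN and 3.62-fold lower in TSC, where it was at 36.4 and 31.8. Slc7a11, the cystine carrier, was hardly read outside EpiSC: 0, 0 and 2 counts in the XEN DMSO libraries, 2 and 2 in TSC and 32 and 41 in EpiSC, too few in XEN for a fold.

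A scaling to ribosomal protein genes, whose share of counts was 2.66 to 3.59% in XEN against 6.06 to 8.33% in the others, moved the median of all genes by -1.048 log2 in TSC against XEN and by -0.754 in EpiSC against XEN. Under it, 3 genes called higher in TSC than in XEN changed sign: Shmt2 from 0.95 to -0.11 log2, Slc3a2 from 0.60 to -0.47 and Ern1 from 0.76 to -0.32. No other called difference between lines changed direction under it, but the calls did change. In the ATF4 branch, 1 gene (Cebpb) was then higher and 15 lower in TSC than in XEN, in place of 6 and 11, and EpiSC against XEN gave 4 and 12, in place of 5 and 3. In EpiSC against TSC 11 were higher and 3 lower, in place of 7 and 4. The TSC calls of Asns, Eif4ebp1 and Slc7a5 were lost (Eif4ebp1 at 0.17 (adjusted p = 0.662) and Slc7a5 at 0.30 (adjusted p = 0.417) log2). In the endoplasmic reticulum branch 12 genes were below XEN by the test for TSC and 13 for EpiSC. The scaling called 75.7%, 73.1% and 51% of all genes in TSC against XEN, EpiSC against XEN and EpiSC against TSC.

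**Figure D1:**
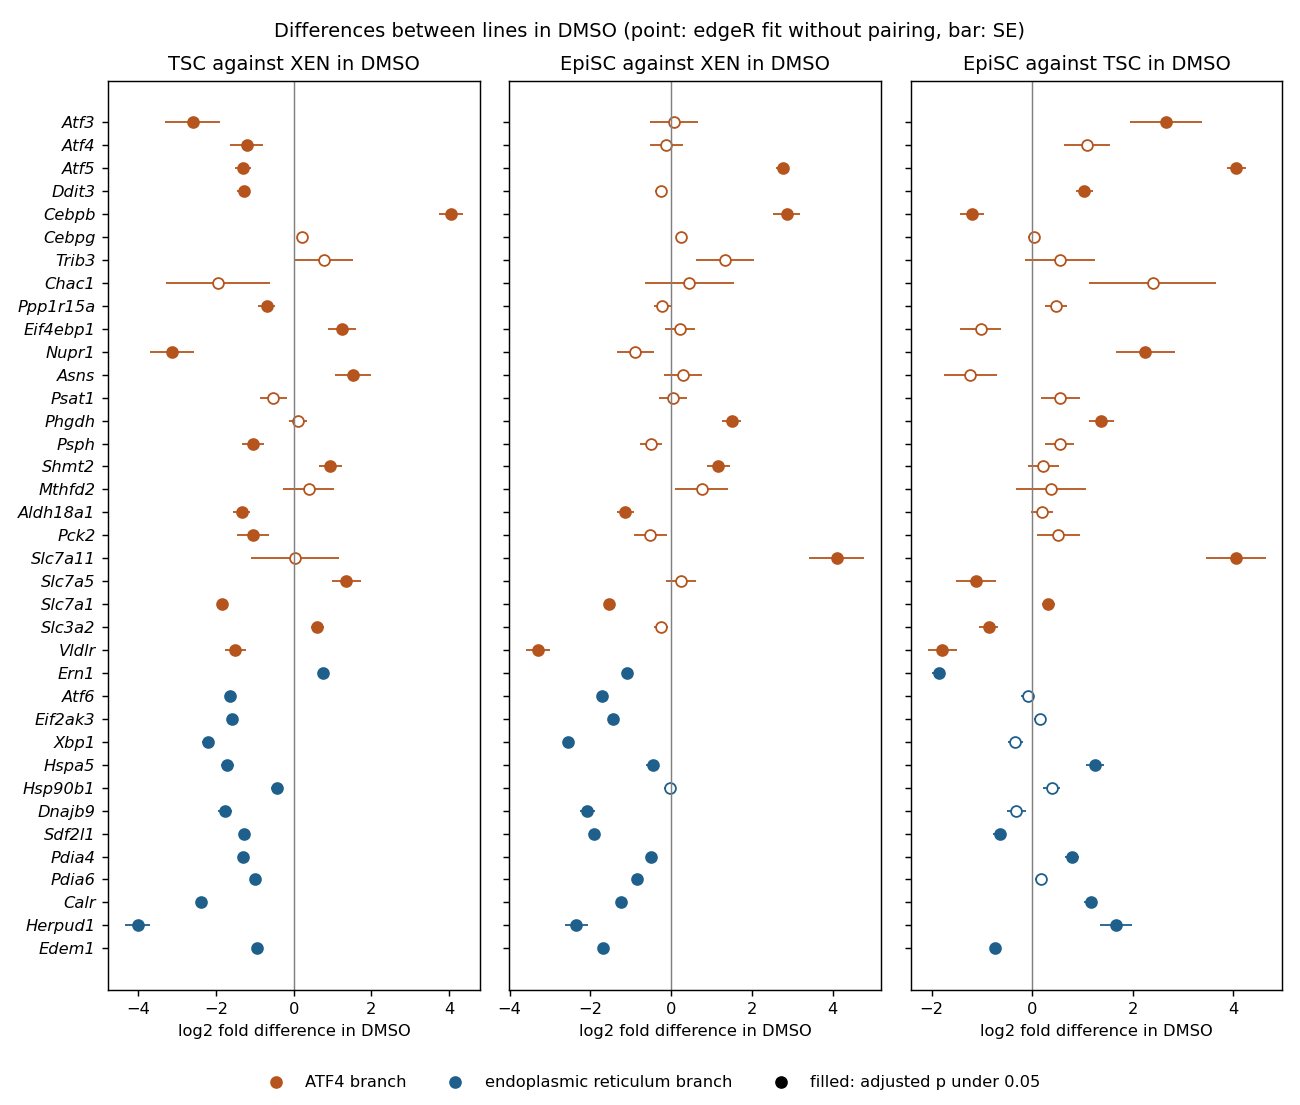
Differences between lines in DMSO for the 37 genes, in log2 with the SE as a bar, one panel per pair of lines, orange for the ATF4 branch and blue for the endoplasmic reticulum branch, filled where the adjusted p is under 0.05. All blue points but Ern1 lie left of 0 in TSC against XEN, while the orange points spread to both sides.

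The mean log2 CPM over the genes of a branch gives the same picture per library. The endoplasmic reticulum branch stood at 7.97, 7.70 and 7.91 in the XEN DMSO libraries, at 6.37 and 6.38 in TSC and at 6.50 and 6.50 in EpiSC. XEN therefore exceeded both by more than 1 log2 in every library. The ATF4 branch stood at 5.46, 4.51 and 4.65 in XEN, at 4.69 and 4.68 in TSC and at 5.27 and 5.26 in EpiSC. XEN library 1 lay above both other lines and XEN libraries 2 and 3 below them.

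XEN library 1 was high in the ATF4 branch in both arms. Against the mean of libraries 2 and 3, the median difference of the 24 genes was 1.00 log2 in DMSO and 0.61 in STM2457. In DMSO 11 of 24 (45.8%) and in STM2457 9 of 24 (37.5%) were higher by at least 1 log2, against 4.47% and 3.9% of all genes tested. The genes that differed most were Chac1, by 3.19 log2 in DMSO and 3.24 in STM2457, and Trib3, by 2.24 and 2.08. The endoplasmic reticulum branch did not share the size of this shift, with medians of 0.14 and 0.05 log2 and 0 of 13 genes at 1 or more. Its direction was shared in DMSO, where 12 of 13 genes (92.3%) were higher in library 1, against 44.7% of all genes. With STM2457, 8 of 13 (61.5%) were higher, against 49.1% of all genes. XEN values with STM2457 below keep the order of libraries 1, 2 and 3, and the counts of calls are given again without both libraries 1.

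**Figure D2:**
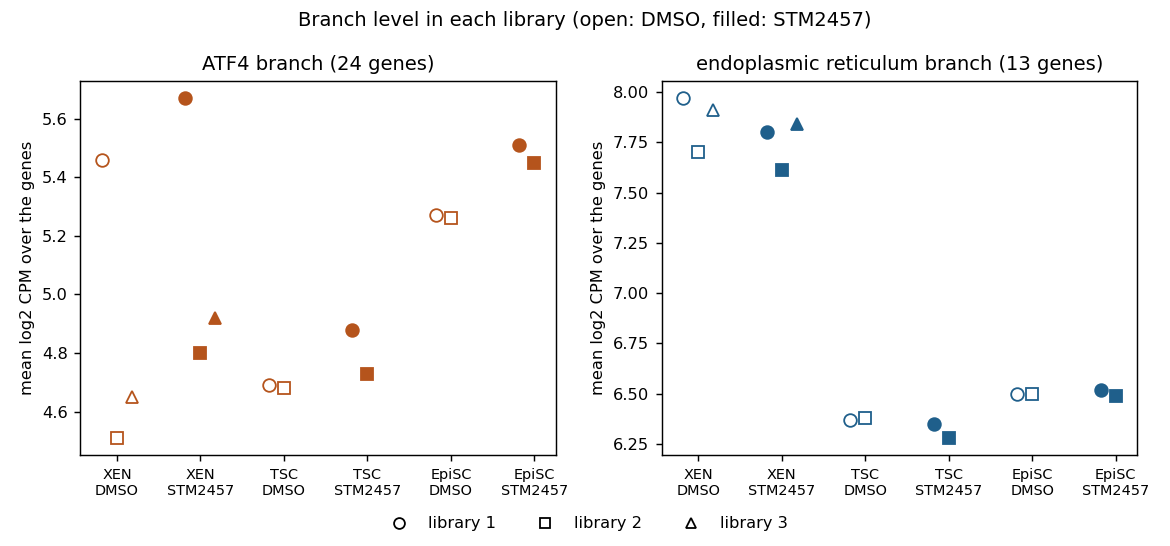
Mean log2 CPM over the 24 genes of the ATF4 branch (left) and the 13 of the endoplasmic reticulum branch (right) in each of the 14 libraries, open for DMSO and filled for STM2457, with the library number as the symbol. XEN library 1 stands at 5.46 and 5.67 in the ATF4 branch, above the 4.51 to 4.92 of XEN libraries 2 and 3.

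With STM2457, the genes of the ATF4 branch called without pairs or with XEN pairs were mostly higher. Those of the endoplasmic reticulum branch were mostly lower apart from Hspa5. Under ribosomal protein scaling without pairs, the mean over the lines called Hspa5 higher and no gene of the latter branch lower. Without pairs, edgeR called 1 of the 37 genes in XEN (Cebpg, higher; 4.15% of all genes, 3.07% higher and 1.07% lower), 0 in TSC (0.966%; DESeq2 called 2, and 2 passed 0.05 before adjustment) and 0 in EpiSC (1.68%; likewise 2 and 3). The mean effect over the 3 lines gave 3 calls (13.4% of all genes, 7.78% higher and 5.62% lower), Cebpg and Aldh18a1 higher and Pdia6 lower. With the XEN pairs as a block, 14 genes were called in XEN (15.8% of all genes), 10 in TSC (15.4%) and 15 in EpiSC (17.2%), and 18 for the mean effect (28.7%). Of the 24 ATF4-branch genes, 10 were then higher and 1 lower in XEN, 5 and 2 in TSC, 11 and 3 in EpiSC, and 11 and 1 in the mean. Of the 13 endoplasmic reticulum genes, 1 was higher and 2 lower in XEN, 0 and 3 in TSC, 0 and 1 in EpiSC, and 1 and 5 in the mean. For all genes, the shares called higher and lower were 8.95% and 6.83% in XEN, 8.52% and 6.83% in TSC, 10% and 7.2% in EpiSC and 14.9% and 13.8% in the mean.

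Leaving out both XEN libraries 1 with the other pairs kept gave 14, 11, 18 and 20 calls in XEN, TSC, EpiSC and the mean, where 14.8%, 19.5%, 21.3% and 28.5% of all genes were called. In XEN, Chac1 was then not among them and Ppp1r15a, lower, was. TSC gained Hspa5, EpiSC gained Slc7a1, Dnajb9 and Pdia4, and the mean gained Atf5 and Pdia4, all higher. The branch medians without pairs were 0.253, 0.110 and 0.247 log2 for the ATF4 branch in XEN, TSC and EpiSC and -0.118, -0.052 and 0.009 for the endoplasmic reticulum branch, beside 0.000 for all genes in each line. Scaling to ribosomal protein genes moved the median of all genes by 0.110 in TSC and 0.119 in EpiSC and by -0.047 in XEN. None of the few genes called with STM2457 without pairs changed sign under it, and so few calls say little. Among all 37 genes, sign changed under it or under RLE scaling in 1 gene in XEN, 10 in TSC, 3 in EpiSC and 7 in the mean. Calls with XEN pairs were not recomputed under either scaling. Of the 9 endoderm markers, 5 were called higher with STM2457 in TSC with XEN pairs (summed level 171.8 to 175.4 CPM in DMSO and 191.1 to 194.6 with STM2457, against 34170 CPM or more in XEN), and their part in the TSC results was not tested.

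Levels were also compared without a model. In the 3 XEN pairs, STM2457 lay above DMSO every time in 14 of 24 ATF4-branch genes and in 1 of 13 of the other branch (19.2% of all genes), and below every time in 2 and in 7 (25.4% of all genes). Every STM2457 library lay above every DMSO library for 12 of the 37 genes in TSC (27.9% of all genes) and for 21 in EpiSC (29.6%), and below for 13 (27.8%) and 8 (26.5%). In XEN the arms were apart upward for 1 gene (8.36%) and downward for 1 (7.03%). Higher in all XEN pairs with the arms apart in both other lines were 8 genes (8.28% of all genes tested), namely Atf4, Cebpg, Trib3, Chac1, Aldh18a1, Pck2, Slc7a5 and Hspa5. Lower in the same way were 2 (6.87%), Hsp90b1 and Pdia6.

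**Figure D3:**
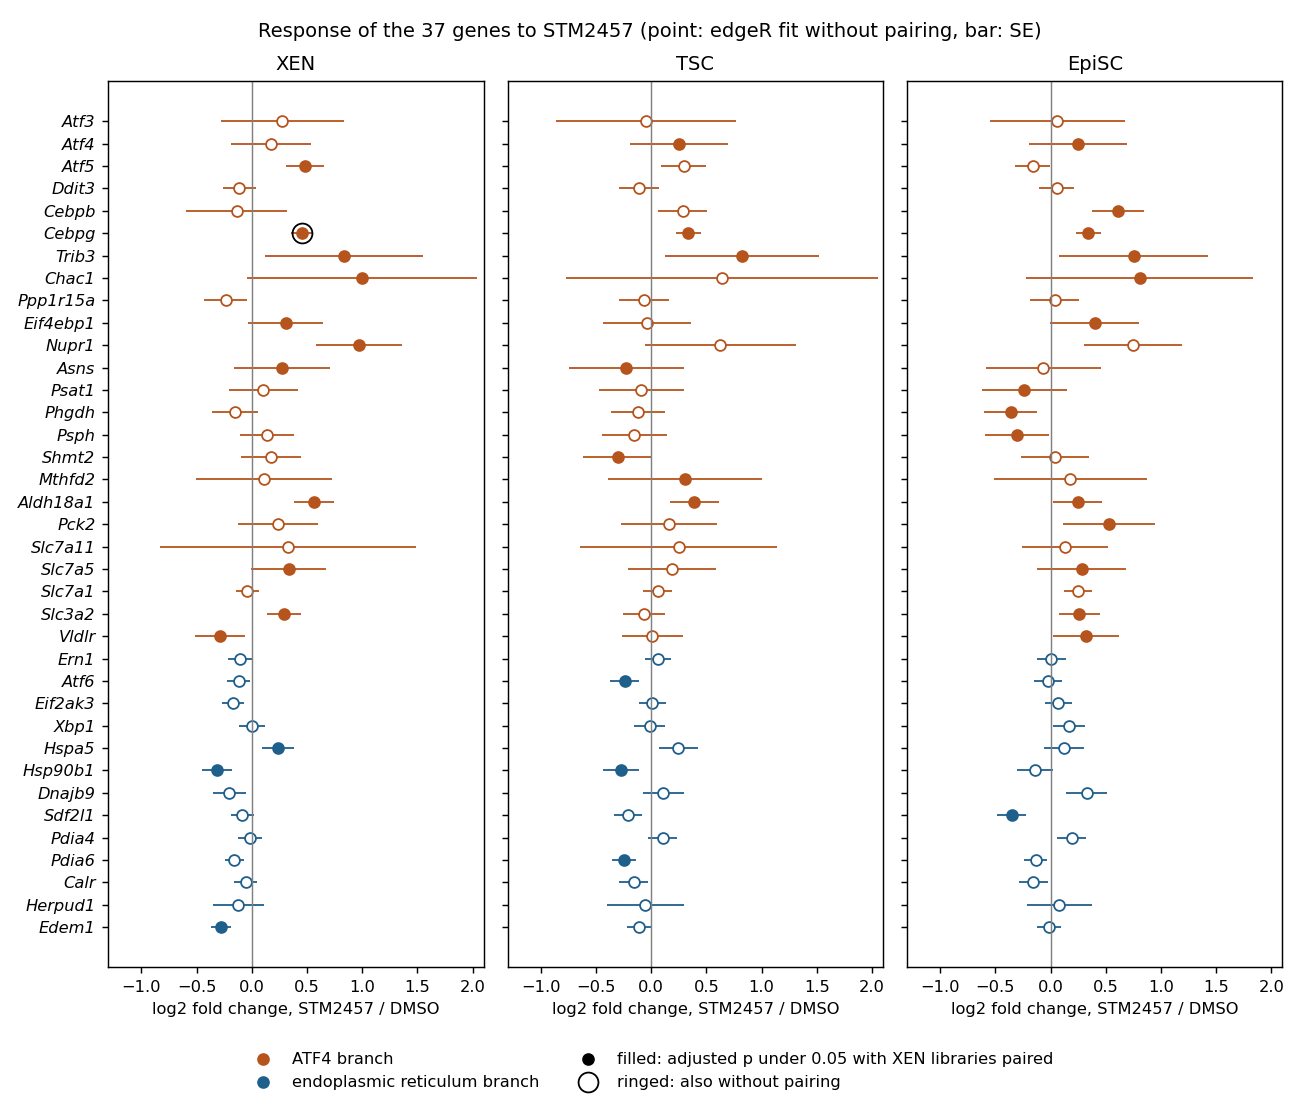
log2 fold change of STM2457 over DMSO for the 37 genes in each line, from the fit without pairs with its SE as a bar. Filled points had an adjusted p under 0.05 with the XEN libraries paired and the ringed point, Cebpg in XEN, also without; the bars of Trib3, Chac1 and Mthfd2 are among the widest.

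Of the 6 transcription factors, Cebpg, a C/EBP partner of ATF4 and itself one of its targets, moved most evenly. It stood at 32.7, 31.4 and 34.6 CPM in DMSO and 48.2, 40.5 and 46.9 with STM2457 in XEN, at 38.3 and 37.9 (DMSO) against 47.2 and 48.9 (STM2457) in TSC, and at 38.5 and 39.4 against 47.7 and 51 in EpiSC. In each of the 3 lines every STM2457 library lay above every DMSO library. The log2 fold change was 0.45 ± 0.10 in XEN (edgeR adjusted p = 0.0166), 0.33 ± 0.11 in TSC (adjusted p = 0.191) and 0.34 ± 0.11 in EpiSC (adjusted p = 0.15), and 0.38 ± 0.063 in the mean (adjusted p = 0.000924), a 1.3-fold rise. With XEN pairs the adjusted p was 0.000294, 0.0069 and 0.0047 in the 3 lines. Without XEN STM2457 library 1 the XEN change was 0.40 and missed the threshold (edgeR adjusted p = 0.0631).

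Atf4 went from 459, 203 and 254 to 547, 214 and 269.7 CPM in the XEN pairs, with TSC values of 129 and 134 (DMSO) and 159 and 156 (STM2457). The EpiSC libraries held 283 and 278 CPM in DMSO and 333 and 333 with STM2457. It was higher with STM2457 in each XEN pair and without overlap in the other lines. The size was small, 0.17 ± 0.36, 0.25 ± 0.45 and 0.25 ± 0.44 log2, and no line was called without pairs (mean 0.22 ± 0.24, edgeR adjusted p = 0.659). With XEN pairs it was called in TSC, EpiSC and the mean (0.21 ± 0.042 log2, adjusted p = 0.000137), not in XEN (adjusted p = 0.143). Atf3 stood with STM2457 at 30.6, 9.32 and 13.7 CPM in XEN, 2.76 and 1.99 in TSC and 15.7 and 16.6 in EpiSC, which overlaps its DMSO values in XEN and TSC, and its XEN pair changes were 0.08, -0.19 and 1.23 log2. Ddit3 stood at 13.4, 11.6 and 12.1 CPM in XEN, 5.11 and 5.04 in TSC and 12.4 and 10.9 in EpiSC, and its largest change in any line was -0.11 ± 0.15 log2. Neither was called by either fit. The 2 remaining factors differed by line. Atf5 was called higher in XEN with pairs (0.47 ± 0.14 log2, edgeR adjusted p = 0.0178) and stood at -0.16 log2 in EpiSC. Cebpb was called in EpiSC with pairs (0.61 ± 0.14 log2, adjusted p = 0.00241) and stood at only 0.383 to 2.04 CPM in XEN.

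With XEN pairs, the largest called fold change in each line fell in the group listed as feedback regulators, but not in 1 gene. It was Nupr1, low everywhere, in XEN, Trib3 in TSC and Chac1 in EpiSC. Trib3, a pseudokinase that restrains ATF4, went from 14.1, 1.78 and 4.63 to 24.1, 4.34 and 7.16 CPM in the XEN pairs, with TSC values of 11.6 and 11.6 (DMSO) and 20.5 and 20.6 (STM2457). In EpiSC it stood at 16.9 and 17.2 CPM in DMSO and 27.9 and 29.6 with STM2457. STM2457 lay above DMSO in every XEN pair, by 0.77, 1.23 and 0.61 log2, and without overlap in both other lines. Without pairs no line was called (0.84 ± 0.72, 0.82 ± 0.70 and 0.75 ± 0.68 log2, edgeR adjusted p = 0.643, 0.688 and 0.673). With XEN pairs the SE fell to 0.16, 0.12 and 0.11 and all 3 lines were called (adjusted p = 0.000567, 1.03e-05 and 8.84e-06), a mean rise of 1.73-fold. Chac1, which degrades glutathione, went from 11.4, 0.81 and 1.59 to 21.8, 1.66 and 2.86 CPM in XEN, with TSC values of 1.41 and 0.904 (DMSO) and 2.15 and 1.5 (STM2457). The EpiSC libraries held 6.31 and 5.94 CPM in DMSO and 11 and 10.4 with STM2457. Its pair changes were 0.92, 0.93 and 0.80 log2, at levels in library 1 several times those of the others. Chac1 was called with XEN pairs in XEN (0.92 ± 0.22 log2, adjusted p = 0.00341) and EpiSC (0.81 ± 0.17, adjusted p = 0.00076), and not in TSC (adjusted p = 0.148), where it had 29 and 18 counts in DMSO and 42 and 34 with STM2457. The XEN call was absent without both libraries 1.

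Of the other 3 feedback genes, Nupr1, a small stress-induced chromatin protein, was called higher in XEN with pairs (1.00 ± 0.28 log2, edgeR adjusted p = 0.00986). It was low everywhere, from 0.265 to 8.72 CPM. Eif4ebp1, a translation repressor, was called in XEN (0.29 ± 0.069 log2) and EpiSC (0.40 ± 0.076) and stood at -0.04 ± 0.075 in TSC. Ppp1r15a, the subunit that directs eIF2 dephosphorylation, was not called in any line by either fit and lay lower in every XEN pair (-0.23 ± 0.19 log2, adjusted p = 0.618).

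**Figure D4:**
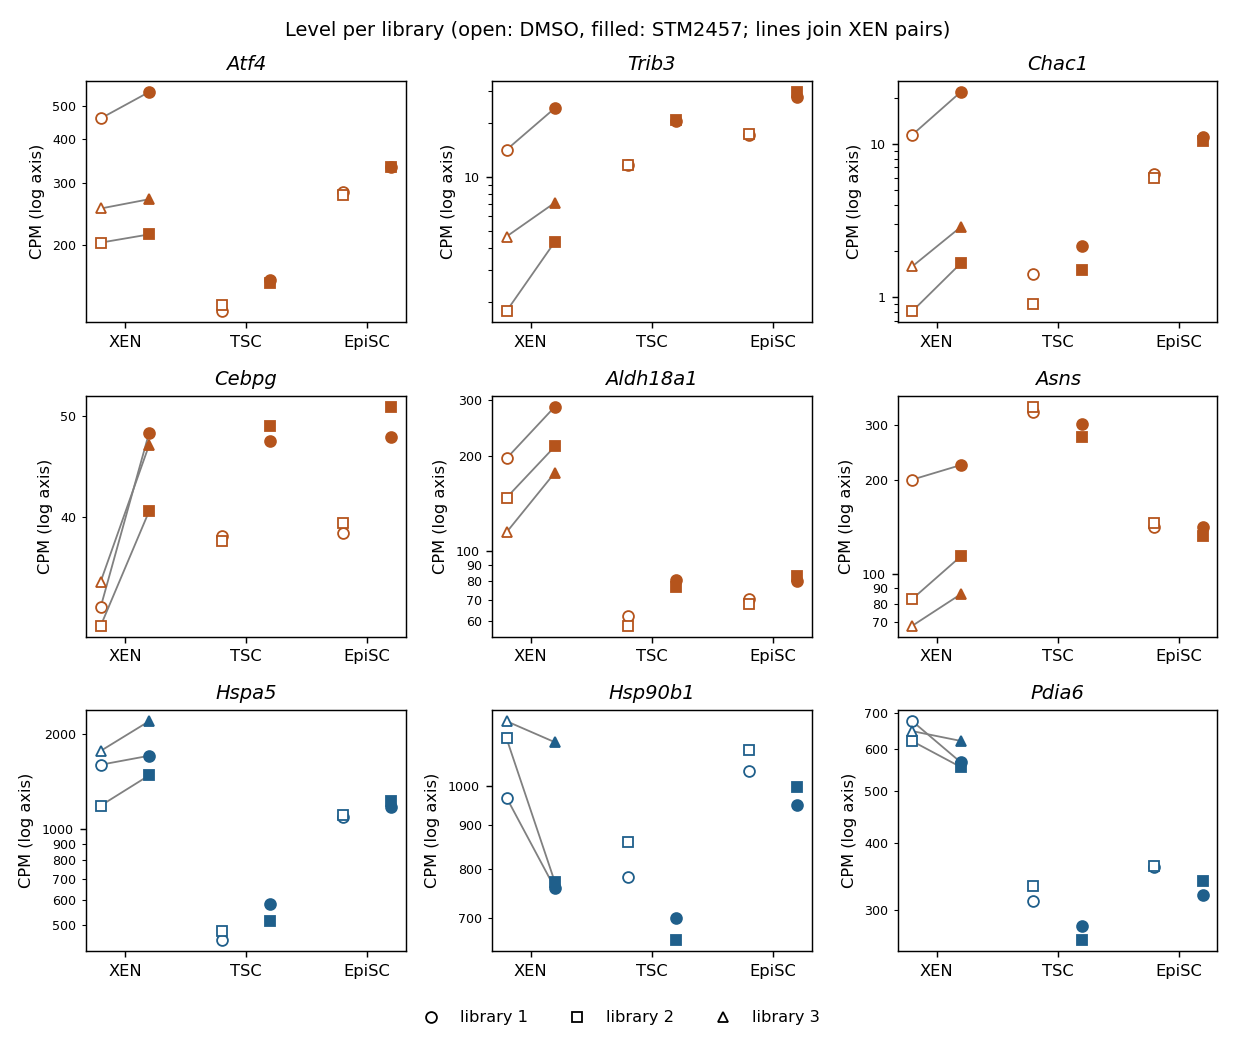
CPM on log axes for 9 of the genes in each library, open for DMSO and filled for STM2457, with grey lines joining the XEN pairs. The XEN lines for Trib3, Chac1 and Hspa5 run upward and those of Hsp90b1 and Pdia6 downward.

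The 8 enzymes did not move together. Aldh18a1, which starts proline synthesis, went from 196, 147 and 114 to 286, 214 and 177 CPM in the XEN pairs, with TSC values of 62.3 and 57.9 (DMSO) and 80.7 and 77 (STM2457). The EpiSC libraries held 70.2 and 68 CPM in DMSO and 80.4 and 83.5 with STM2457. STM2457 was higher by nearly the same amount in all 3 XEN pairs (0.54, 0.54 and 0.63 log2) and the arms of TSC and EpiSC did not overlap. The mean effect was 0.40 ± 0.12 log2 without pairs (edgeR adjusted p = 0.042) and 0.40 ± 0.043 with them (adjusted p = 5.07e-09). Without pairs that call was lost on leaving out XEN DMSO library 2 or any 1 library of TSC or EpiSC, with adjusted p up to 0.122 and a change of 0.38 to 0.42. Asns went from 200.5, 83.2 and 68.3 to 223, 114 and 86.2 CPM in XEN, with TSC values of 330.3 and 343 (DMSO) and 303 and 274 (STM2457). In EpiSC it stood at 141 and 146 CPM in DMSO and 142 and 132 with STM2457. It was higher in every XEN pair and lower without overlap in TSC, and its EpiSC arms overlapped. With XEN pairs Asns was called higher in XEN (0.30 ± 0.073 log2, adjusted p = 0.00327) and lower in TSC (-0.22 ± 0.079, adjusted p = 0.0483), and neither without pairs.

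The serine and one-carbon enzymes were mixed as well. In EpiSC with XEN pairs, the 3 enzymes of serine synthesis were called lower, Phgdh at -0.36 log2, Psph at -0.30 and Psat1 at -0.24 (edgeR adjusted p = 0.00242, 0.0365 and 0.0246; Cct6a covers 10.4% of the exons of Psph on the opposite strand), with Phgdh at 227 and 229 CPM in DMSO and 178 and 177 with STM2457. The mitochondrial serine enzyme Shmt2 was called lower in TSC (-0.30 ± 0.08 log2), whereas Mthfd2, the next mitochondrial one-carbon enzyme, was called higher there (0.31 ± 0.084). Pck2, the mitochondrial PEP carboxykinase, was called higher in EpiSC (0.53 ± 0.094 log2, adjusted p = 0.00013). None of these 6 enzymes was called in any line without pairs.

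Of the surface proteins, the 2 subunits of the large neutral amino acid transporter rose together in XEN and EpiSC with XEN pairs. Slc7a5 changed by 0.32 ± 0.074 log2 in XEN, 0.19 ± 0.079 in TSC and 0.28 ± 0.081 in EpiSC, and its partner Slc3a2 by 0.29 ± 0.067, -0.06 ± 0.076 and 0.26 ± 0.077. The edgeR adjusted p was 0.00223 and 0.00231 in XEN and 0.013 and 0.017 in EpiSC, and TSC was not called for either. Slc7a11 was too low to judge, with 0, 0 and 2 counts in DMSO and 1, 1 and 1 with STM2457 in XEN, 2 and 2 against 3 and 2 in TSC, and 32 and 41 against 48 and 36 in EpiSC. Slc7a1 was not called in any line by either fit. Vldlr was called lower in XEN (-0.28 ± 0.076 log2, edgeR adjusted p = 0.00924) and higher in EpiSC (0.32 ± 0.11, adjusted p = 0.0446) with XEN pairs.

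In the endoplasmic reticulum branch, none of the 4 sensors and factors was called without pairs. Xbp1 with STM2457 stood at 294, 249.6 and 308 CPM in XEN, 60.8 and 60.5 in TSC and 57.7 and 51.2 in EpiSC, overlapping DMSO in XEN, with changes of 0.00, -0.01 and 0.16 log2. Atf6 stood at 163, 122 and 134 CPM in XEN, 42.3 and 39.9 in TSC and 44.7 and 45.4 in EpiSC. It lay below DMSO without overlap in TSC, the only sensor called with XEN pairs (-0.24 ± 0.084 log2, edgeR adjusted p = 0.0461). Eif2ak3 stood at 87.8, 71.6 and 79.4 CPM in XEN, 30.7 and 29.2 in TSC and 34.9 and 34.6 in EpiSC and was lower in every XEN pair (-0.16, -0.16 and -0.19 log2) without being called (adjusted p = 0.113 with pairs). Gm43292 covers 8.05% of its exons on the opposite strand. Ern1 stood at 28.9, 25.5 and 30.5 CPM in XEN, 52.3 and 55.3 in TSC and 14.9 and 13.6 in EpiSC, with changes of -0.11, 0.06 and 0.01 log2, and was not called.

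With XEN pairs, Hspa5 rose and Hsp90b1 fell in the mean over the lines. Hspa5 went from 1596, 1188 and 1764 to 1703, 1478 and 2186 CPM in the XEN pairs, with TSC values of 449 and 479 (DMSO) and 582 and 518 (STM2457). In EpiSC it stood at 1097 and 1112 CPM in DMSO and 1174 and 1230 with STM2457. Hsp90b1 went from 969.5, 1138 and 1192 to 758, 771 and 1126 CPM in XEN, with TSC values of 782 and 860 (DMSO) and 700.3 and 659 (STM2457). The EpiSC libraries held 1042 and 1104 CPM in DMSO and 949.8 and 996 with STM2457. Hspa5 was higher and Hsp90b1 lower in each XEN pair and without overlap in both other lines. In the mean over lines Hspa5 changed by 0.20 ± 0.097 log2 and Hsp90b1 by -0.24 ± 0.089 without pairs (edgeR adjusted p = 0.202 and 0.0869, neither called), and by 0.20 ± 0.047 and -0.25 ± 0.05 with XEN pairs (adjusted p = 0.00108 and 0.000216). Both promoters hold a stress element, printed above. Scaling to ribosomal protein genes gave a mean change of 0.28 (adjusted p = 0.0352) for Hspa5 and -0.18 (adjusted p = 0.358) for Hsp90b1, with Hsp90b1 at -0.01 in EpiSC. On the opposite strand the pseudogene 1810014B01Rik covers 10.3% of the exons of Hsp90b1; whether counting used strand is not stated.

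Pdia6, a disulfide isomerase, went from 676, 620.2 and 648 to 566, 555 and 621 CPM in the XEN pairs, with TSC values of 312 and 332 (DMSO) and 280.1 and 263 (STM2457). In EpiSC it stood at 361 and 362 CPM in DMSO and 320 and 339 with STM2457. STM2457 was lower in every pair and the arms of the other lines did not overlap. Its mean change of -0.18 ± 0.058 log2, a 1.13-fold fall, passed just inside the threshold without pairs (edgeR adjusted p = 0.0499) and further inside with them (0.00164). Without pairs, leaving out any 1 library other than XEN DMSO library 2 or XEN STM2457 library 3 lost that call, at changes of -0.19 to -0.17. Scaling to ribosomal protein genes gave -0.11 (adjusted p = 0.469). Of the other 4 folding genes, Sdf2l1, a partner of BiP co-chaperones, was called lower in EpiSC with XEN pairs (-0.35 ± 0.11 log2, adjusted p = 0.024), and Dnajb9, Pdia4 and Calr were called in no line by these fits, with changes from -0.20 to 0.33 log2.

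Of the degradation genes, Herpud1 stood with STM2457 at 126, 71.9 and 84.4 CPM in XEN, 6.38 and 5.84 in TSC and 22 and 20.7 in EpiSC. It was slightly lower in each XEN pair (-0.13, -0.09 and -0.14 log2) and was not called in any line. Edem1, which extracts misfolded glycoproteins from the folding cycle, was called lower in XEN with pairs (-0.28 ± 0.068 log2, edgeR adjusted p = 0.00389), from 180.3, 183 and 155 to 146, 144 and 137 CPM, with every STM2457 library below every DMSO library. Its changes in TSC and EpiSC were -0.11 and -0.02 log2.

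The branch levels moved little beside these genes. The mean log2 CPM of the ATF4 branch changed by 0.26 in XEN, where libraries of 1 arm had an SD of 0.49, by 0.12 in TSC (SD 0.079) and by 0.21 in EpiSC (SD 0.03). The endoplasmic reticulum branch changed by -0.11 (SD 0.13), -0.06 (SD 0.037) and 0.01 (SD 0.017). The ATF4 change was larger than this SD in TSC and EpiSC. In TSC, however, the STM2457 libraries stood at 4.88 and 4.73, against 4.69 and 4.68 in DMSO. Leaving out STM2457 library 1 or 2 there gave a change of 0.05 or 0.20. In XEN the ATF4 change was smaller than the SD within an arm. The 3 XEN pairs gave 0.21, 0.29 and 0.27 in the ATF4 branch and -0.17, -0.09 and -0.07 in the endoplasmic reticulum branch, each of one sign. Leaving out 1 library of pair 1 breaks that pair and gave an ATF4 change of -0.01 (without STM2457) or 0.55 (without DMSO). These are descriptions with no test.

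Whether a gene's STM2457 effect differed between lines was tested directly. Without pairs, edgeR called 0 of the 37 genes in each of the 3 comparisons of effects (0.00543%, 0.0109% and 0.00543% of all genes; DESeq2 called 0, 0 and 0, and 0, 2 and 0 had an unadjusted p under 0.05). With XEN pairs, 2 were called between TSC and XEN (0.95% of all genes, 0.505% higher and 0.445% lower), 3 between EpiSC and XEN (2.18% of all genes, 1.24% higher and 0.933% lower) and 1 between EpiSC and TSC (1.49% of all genes, 0.863% higher and 0.624% lower). Asns and Shmt2 had a lower effect in TSC than in XEN, with differences of -0.53 ± 0.11 and -0.48 ± 0.11 log2 (adjusted p = 0.00922 and 0.0248). Atf5 and Psat1 had a lower effect in EpiSC than in XEN (-0.63 ± 0.17 and -0.36 ± 0.099), and Vldlr a higher one (0.60 ± 0.14). The effect on Eif4ebp1 was higher in EpiSC than in TSC (0.43 ± 0.11).

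The same comparison was made for genes of the pathways outside the list. Of 12 genes of the eIF2 kinases, the eIF2 phosphatase and eIF2B, 2 were called higher in XEN without pairs, Eif2ak4, the amino acid sensing kinase GCN2 (0.40 ± 0.11 log2, edgeR adjusted p = 0.0467), and Eif2b2 (0.36 ± 0.098 log2, edgeR adjusted p = 0.0484). In the mean over lines Eif2b4 and Eif2b3, subunits of the exchange factor eIF2B, were lower (-0.39 ± 0.075 log2, edgeR adjusted p = 0.00252, and -0.29 ± 0.068 log2, edgeR adjusted p = 0.00828), as was Gcn1, a partner of GCN2 (-0.21 ± 0.056 log2, edgeR adjusted p = 0.018). The eIF2B subunit Eif2b2 and Eif2ak4 were higher there (0.22 ± 0.06 log2, edgeR adjusted p = 0.0227, and 0.25 ± 0.069 log2, edgeR adjusted p = 0.0234), so the subunits of eIF2B did not change in 1 direction. With XEN pairs 2 of the 12 were higher and 1 lower in XEN, 0 and 2 in TSC, and 0 and 4 in EpiSC. Of 23 other ATF4 targets tested, 1 was called in a single line without pairs, Nfil3 in TSC (0.87 ± 0.16 log2, edgeR adjusted p = 0.0172), a transcription factor that was also called in the mean (0.55 ± 0.11 log2, edgeR adjusted p = 0.00363). With XEN pairs 3 of these targets were higher and 2 lower in XEN, 4 and 3 in TSC, and 3 and 2 in EpiSC. For all these lists, the shares of all genes called higher and lower by that fit were 8.95% and 6.83% in XEN, for TSC 8.52% and 6.83%, and for EpiSC 10% and 7.2%. Among them the neutral amino acid carriers Slc1a4 and Slc1a5 were higher in XEN (0.73 ± 0.097 log2, edgeR adjusted p = 1.38e-06, and 0.68 ± 0.086 log2, edgeR adjusted p = 6.66e-07) and in TSC (0.71 ± 0.11 log2, edgeR adjusted p = 2.42e-05, and 0.43 ± 0.08 log2, edgeR adjusted p = 0.00032). Their effect was lower in EpiSC than in XEN by the same fit (-0.54 ± 0.14 log2, edgeR adjusted p = 0.0289, and -0.56 ± 0.12 log2, edgeR adjusted p = 0.0068). Other targets of the list fell. With the numbers as a block in all lines, Slc38a2 and Sqstm1 were called lower in XEN. By that fit Cth, Mthfd1l and Sqstm1 were lower in TSC, and Cbs and Gdf15 in EpiSC.

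The aminoacyl-tRNA synthetases, further known ATF4 targets, gave 0 of 12 calls without pairs in each line, with medians of -0.082, -0.170 and -0.066 log2. With XEN pairs 0 were higher and 2 lower in XEN, 1 and 2 in TSC, and 0 and 4 in EpiSC. A list of 38 further endoplasmic reticulum genes had 1 call in each direction in XEN without pairs, Wfs1, a membrane protein of that organelle, higher (0.64 ± 0.13 log2, edgeR adjusted p = 0.0103) and the vesicle coat gene Sec24d lower (-0.36 ± 0.096 log2, edgeR adjusted p = 0.0419), and none in TSC or EpiSC. In the mean over lines without pairs, Wfs1 and Sel1l were called higher (0.37 ± 0.079 and 0.22 ± 0.061 log2, edgeR adjusted p = 0.00513 and 0.0207). Syvn1, Creld2 and Ssr3 were called lower there (-0.225 ± 0.065, -0.21 ± 0.065 and -0.17 ± 0.055 log2, edgeR adjusted p = 0.0287, 0.0395 and 0.0482). The mean called 7.78% of all genes higher and 5.62% lower. The medians of this list were -0.029, -0.133 and -0.106 log2, and with XEN pairs 3 were higher and 6 lower in XEN, 1 and 3 in TSC, and 1 and 4 in EpiSC. Of 11 cytosolic heat shock genes, Dnajb1, an HSP40 co-chaperone, was called in XEN without pairs (0.37 ± 0.10 log2, edgeR adjusted p = 0.0442). Dnajb1 and the co-chaperone gene Bag3 were called higher in the mean (0.30 ± 0.065 log2, edgeR adjusted p = 0.00576, and 0.46 ± 0.10 log2, edgeR adjusted p = 0.00683). With XEN pairs XEN had 2 heat shock genes higher and 0 lower, TSC 2 and 1, and EpiSC 2 and 2. The lower ones were Hspb1 in TSC (-0.55 ± 0.091 log2, edgeR adjusted p = 9.41e-05) and Hspa4l and Chordc1 in EpiSC (-0.30 ± 0.099 log2, edgeR adjusted p = 0.0297, and -0.32 ± 0.077 log2, edgeR adjusted p = 0.00363).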

How the data were processed

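RNA was measured by sequencing in 14 libraries of 3 mouse stem cell lines with DMSO or STM2457, from total RNA taken up in TRIzol and a stranded total RNA kit, per the labels. The authors deposited raw read counts per Ensembl gene. FastQC, Trim Galore, STAR, featureCounts and the build GRCm39 (mm39) are named in the submitters' processing notes, without versions. The sources used here do not give the strand setting. Gene names and exon lengths came from GENCODE M21 (GRCm38), in which 3281 of 55416 identifiers had no name.

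Groups came from the labels. Counts were scaled by TMM and fitted with edgeR 4.0.16 (R 4.3.3; quasi-likelihood F test, robust) in 1 fit of 6 groups, after a filter at a minimum count of 10 (total 15), which 18430 genes passed; p-values were Benjamini-Hochberg adjusted over them and called under 0.05. The scripts were tested on simulated data. DESeq2 1.42.0, other scalings, no filter, blocks and leaving out libraries were alternatives. Same-numbered XEN libraries had residual correlations over 0.1 and were taken as pairs from the data, and the labels do not state a pairing. Log2 CPM used a prior count of 2.

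All 37 genes were accounted for. Values per library were given for genes called with STM2457 without pairs, for a fixed set of 14 regulators and targets, and for up to 6 genes per DMSO comparison by size of change. Other genes were named after their values were seen. The members and lists were chosen with earlier results of these data known. Ddit3 has 2 identifiers, of which 1 holds 0 counts.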

Additional observations from a re-analysis of the deposited data

Results flagged for a closer look

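In 6 genes the STM2457 effect differed between 2 lines by a test of the difference itself, in the edgeR fit with XEN pairs. Of all genes, that fit called 0.95% in TSC against XEN, 2.18% in EpiSC against XEN and 1.49% in EpiSC against TSC. None passed in the fit without pairs. In TSC against XEN, Asns differed by -0.53 ± 0.11 log2 and Shmt2 by -0.48 ± 0.11 (edgeR adjusted p = 0.00922 and 0.0248). Asns was higher with STM2457 in 3 of 3 XEN pairs and lower in both TSC libraries than in either DMSO library. In EpiSC against XEN, Atf5 differed by -0.63 ± 0.17 log2, Psat1 by -0.36 ± 0.099 and Vldlr by 0.60 ± 0.14 (adjusted p = 0.0382, 0.0472 and 0.0133). Vldlr alone of the 6 also passed with numbers as a block in all 3 lines. In EpiSC against TSC, Eif4ebp1 differed by 0.43 ± 0.11 log2 (adjusted p = 0.0308).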

How the results depend on the processing

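The number of genes called with STM2457 differed between settings. Shares of all genes called are in parentheses, but not for the setting without a filter, where more genes were tested. In XEN, 1 was called without pairs (4.15%), 4 by DESeq2 (8.62%), 0 with ribosomal protein scaling (0.76%) and 6 without a filter. The replicate block in all lines gave 14 (13.3%) and XEN alone 0 (0.331%). The block in XEN only gave 14 (15.8%), and 14 with both XEN libraries 1 left out as well (14.8%). In TSC the same were 0 called without pairs (0.966%), 2 by DESeq2 (5.27%), 1 without a filter and 5 with the block (11%). TSC alone gave 14 (25.4% of all genes), and the XEN block 10 (15.4%) and 11 (19.5%). In EpiSC they were 0 (1.68%), 2 by DESeq2 (6.26%), 1 without a filter, 10 with the block (13.2%) and 17 with EpiSC alone (24.1%). The XEN block gave 15 (17.2%) and 18 (21.3%), and 1 was called without libraries 1 and no block (3.76%). The mean effect gave 3 (13.4%), then 10 without a filter, 17 with the block (25.6%), 18 (28.7%) and 20 (28.5%) with the XEN block, and 7 without libraries 1 and no block (14.3%). Differences of effect gave 0 without pairs (0.00543% in TSC against XEN, 0.0109% in EpiSC against XEN and 0.00543% in EpiSC against TSC). With the XEN block they gave 2 in TSC against XEN (0.95%), 3 in EpiSC against XEN (2.18%) and 1 in EpiSC against TSC (1.49%). The full block gave 1 in EpiSC against XEN (0.971%). Without libraries 1 as well, the XEN block gave 2, 6 and 1. Only the lines compared gave 3 in EpiSC against TSC. For these last 2 settings the shares of all genes were not counted.

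In DMSO, EpiSC against XEN gave 20 without pairs (71.7% of all genes), 31 with the block (76.8%) and 32 with the XEN block (77.9%). Its split of 5 higher and 15 lower became 14 and 14 without libraries 1 and no block (70.8%) and 15 and 15 with the XEN block as well (76.5%). Ribosomal protein scaling made it 4 and 25 (73.1%). That scaling gave 1 and 27 in TSC against XEN (75.7%), in place of 7 and 23 (72.5%). EpiSC against TSC gave 18 (54.4%), then 28 without a filter, 33 with the block (62.8%) and 34 with only those lines (66.9%). The XEN block gave 33 (64.4%) and 34 (66%), and 29 were called without libraries 1 and no block (57%). The cause was not tested, except that each block takes the spread between XEN pairs out of the error. The full block called 13.3%, 11%, 13.2% and 25.6% of all genes in XEN, TSC, EpiSC and the mean. TSC and EpiSC numbers did not pair (correlations of -0.00 and -0.01).

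Leaving out 1 XEN library at a time without pairs gave 0 to 3 calls in XEN, where 412 to 1044 of 18430 genes were called. Without STM2457 library 1 it was 0 (450 genes called), and without DMSO library 1 it was 3 (876). TSC and EpiSC gave 0 calls, with 187 to 479 and 338 to 786 genes called. The mean gave at most 4, with 2375 to 3250 genes called, and the differences of effect gave 0. Leaving out a TSC or EpiSC library leaves 1 in a group, so those calls are not counted here. In DMSO, leaving out 1 XEN library gave at most 30 calls in TSC against XEN, 22 in EpiSC against XEN and 24 in EpiSC against TSC. With all libraries, 72.5%, 71.7% and 54.4% of all genes were called there. With any 1 library of the line left out, the log2 change of the ATF4 branch ran from -0.01 to 0.55 in XEN, 0.05 to 0.20 in TSC and 0.18 to 0.24 in EpiSC. The endoplasmic reticulum branch ran from -0.19 to -0.04, -0.09 to -0.02 and -0.01 to 0.03. With ribosomal protein scaling the ATF4 branch changed by 0.26 in TSC and 0.34 in EpiSC, and the other by 0.08 and 0.14. With the median over genes in place of the mean, the endoplasmic reticulum branch changed by -0.01 in TSC and 0.11 in EpiSC and the ATF4 branch by 0.29 in EpiSC. Of 537 values of single genes recomputed with all libraries, 466 kept their side of the threshold, 67 gained a call, 4 lost one and 0 called values reversed. Sign changed in 16 values that were uncalled in both settings. XEN depth, at most 10024628 counts, limits genes such as Slc7a11 and Cebpb there.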

Other observations

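Stress programmes outside the list were read in the same fits. Of 10 genes of the NRF2 oxidative stress response, 3 were higher in EpiSC with XEN pairs, among them Hmox1, which degrades haem (0.71 ± 0.081 log2, edgeR adjusted p = 1.61e-07), and Srxn1, which repairs peroxiredoxins (0.59 ± 0.09 log2, edgeR adjusted p = 1.55e-05). In XEN 1 was higher and 1 lower, and in TSC 0 and 1. Of 11 genes of mitochondrial protein stress, 2 were higher and 2 lower in XEN with XEN pairs, 1 and 3 in TSC, and 1 and 1 in EpiSC. For both lists, the shares of all genes called higher and lower by that fit were 8.95% and 6.83% in XEN. They were 8.52% and 6.83% in TSC, and 10% and 7.2% in EpiSC. Oma1, the inner membrane protease that signals mitochondrial stress to eIF2, was higher in the mean over lines without pairs (0.41 ± 0.091 log2, edgeR adjusted p = 0.00701), and the matrix unfoldase Clpx was lower (-0.35 ± 0.089 log2, edgeR adjusted p = 0.0134). Yme1l1 of the same list was also lower there (-0.26 ± 0.073 log2, edgeR adjusted p = 0.0252). Of the NRF2 genes, only Slc48a1 was called in that mean, higher (0.36 ± 0.082 log2, edgeR adjusted p = 0.00727). The mean called 13.4% of all genes.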
